A study of Bos taurus with 18 samples.

Results

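Expression of 10 genes that mark blood vessel endothelium was followed in the bovine endometrium: PECAM1, CDH5, VWF, KDR, FLT1, TEK, TIE1, ENG, EMCN and CLDN5. They were taken from the count table by gene symbol (Ensembl ENSBTAG00000012066, ENSBTAG00000007421, ENSBTAG00000012265, ENSBTAG00000000782, ENSBTAG00000016915, ENSBTAG00000020148, ENSBTAG00000003777, ENSBTAG00000008997, ENSBTAG00000034206 and ENSBTAG00000022020). Each symbol stood on 1 row, so the set is 10 of the 38001 rows, and all 10 were among the 19638 genes with enough counts to be tested. Endometrial cells were brushed from the uterus of 6 Holstein cows on a dairy farm, and each cow gave 3 RNA sequencing libraries, 18 in all. Every cow underwent Ovsynch, a hormone schedule that synchronizes the ovary, in both of its cycles, and days were counted from estrus. In the first cycle no progestogen was given, and samples were taken on day 4 and day 7 (untreated day 4 and untreated day 7). In the second cycle a progestogen was given on day 4 and the sample was taken on day 7 (treated day 7). A depot preparation went to animals A, B and C, the 17-OHPC/P4 arm; it held 17α-hydroxyprogesterone caproate (17-OHPC, 100 mg) and progesterone (P4, 10 mg). Progesterone by itself, at 100 mg, went to animals D, E and F, the P4 arm. The 6 groups thus hold 3 animals each. The treated cycle came second in every cow, so treatment and cycle order cannot be told apart, and the arms are different cows. Material was taken with a cytobrush turned once in the uterine horn next to the ovary that bore the corpus luteum, a method that samples the surface of the mucosa.

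Endothelial cells line all blood vessels. KDR and FLT1 are receptors for vascular endothelial growth factors (VEGF); KDR carries most of the growth signal, and FLT1 binds the ligand tightly and can hold it away from KDR. TEK is the receptor for angiopoietins, and TIE1 is its partner receptor. ENG, endoglin, is a co-receptor for ligands such as BMP9. CDH5, VE-cadherin, holds neighbouring endothelial cells together at adherens junctions, and CLDN5 seals their tight junctions. PECAM1 is an adhesion molecule of endothelial junctions that leukocytes and platelets also carry. EMCN is a sialomucin of capillaries and veins, and VWF is the clotting factor that endothelium and platelets store and release. Vessels of the endometrium grow and remodel with each cycle, and they lie in the stroma beneath the epithelium.

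Levels are given as CPM (read counts scaled to a common library size by edgeR), and changes as log2 fold changes with their standard error (SE). A change was called at an adjusted p below 0.05 in edgeR's quasi-likelihood test, with Benjamini-Hochberg adjustment over the 19638 genes. Total counts ran from 29347255 to 40733544 per library. All 10 endothelial genes had counts in at least 17 of the 18 libraries, and their summed level ran from 25.1 to 152 CPM. Epithelial markers summed to between 2362 and 4765 CPM. The 3 libraries of animal C stood apart. They held 2335, 4097 and 351 CPM of HBB, a hemoglobin chain, on untreated day 4, untreated day 7 and treated day 7. The red blood cell list summed to at most 5.74 CPM in any library of the other 5 animals. In animal C the stromal list (collagens, DCN and other fibroblast genes) summed to 6538, 4643 and 3134 CPM, against 122 to 3462 CPM in the other animals. Values that rest on the 17-OHPC/P4 arm are also given without animal C for the members that moved most.

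FLT1 had the widest range of the 8 members that were above 0 in every library, 116-fold from lowest to highest. In animals A, B and C it stood at 0.985, 0.374 and 12.6 CPM on untreated day 4, 1.41, 2.98 and 15.5 CPM on untreated day 7 and 1.41, 1.47 and 2.98 CPM on treated day 7. In animals D, E and F it stood at 6.27, 3.51 and 8.36 CPM on untreated day 4, 4.62, 19.4 and 0.168 CPM on untreated day 7 and 1.20, 0.988 and 1.67 CPM on treated day 7. Untreated levels were scattered in both arms, with the highest in E and C and the lowest in F on day 7, whereas the 6 treated libraries ran from 0.988 to 2.98 CPM, with C above the other 5. Mean FLT1 was 5.34 ± 4.67 CPM (SD, n = 6) on untreated day 4, 7.36 ± 8.08 CPM on untreated day 7 and 1.62 ± 0.709 CPM on treated day 7.

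KDR, the main VEGF receptor, stood at 6.19, 3.17 and 22.0 CPM on untreated day 4, 35.0, 17.9 and 34.3 CPM on untreated day 7 and 7.90, 13.7 and 19.9 CPM on treated day 7 in animals A, B and C. In animals D, E and F it stood at 13.4, 13.4 and 19.3 CPM on untreated day 4, 11.4, 23.4 and 7.45 CPM on untreated day 7 and 4.79, 87.0 and 4.94 CPM on treated day 7. Each animal of the 17-OHPC/P4 arm peaked on untreated day 7. The treated library of animal E, in the P4 arm, held more KDR than any of the other 17 libraries.

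The angiopoietin receptor TEK varied least, with a 3.25-fold range over the 18 libraries and a standard deviation of 0.45 on the log2 scale between animals of a group. Its group means lay between 3.07 ± 1.49 CPM (SD, n = 3) on untreated day 4 of the 17-OHPC/P4 arm and 5.21 ± 0.491 CPM on treated day 7 of the P4 arm. TIE1 in animals D, E and F stood at 1.30, 1.03 and 2.92 CPM on untreated day 4, 0, 1.94 and 0.392 CPM on untreated day 7 and 0.0704, 0.900 and 0.926 CPM on treated day 7. The 0 in animal D allows up to 0.0964 CPM (3 counts scaled by total counts alone, counting error only). TIE1 was thus lowest in both day 7 libraries of D and in the untreated day 7 library of F. In animals A, B and C it stayed between 0.784 and 2.24 CPM.

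ENG in animals A, B and C stood at 5.15, 3.05 and 57.1 CPM on untreated day 4, 5.34, 15.3 and 41.8 CPM on untreated day 7 and 5.72, 6.70 and 20.4 CPM on treated day 7. In animals D, E and F it stood at 19.5, 14.0 and 24.6 CPM on untreated day 4, 18.9, 24.1 and 3.19 CPM on untreated day 7 and 9.29, 7.41 and 6.42 CPM on treated day 7. Animal C gave the highest values of all libraries, and in the P4 arm the 3 treated libraries lay below the 3 day 4 libraries. The mean over 6 animals was 20.6 ± 19.7 CPM (SD, n = 6) on untreated day 4, 18.1 ± 14.1 CPM on untreated day 7 and 9.33 ± 5.57 CPM on treated day 7.

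Of the junction genes, CDH5 stood at 2.25, 0.311 and 7.25 CPM on untreated day 4, 0.565, 5.43 and 5.64 CPM on untreated day 7 and 2.05, 1.47 and 4.27 CPM on treated day 7 in animals A, B and C. In D, E and F it stood at 5.12, 4.82 and 8.64 CPM on untreated day 4, 0.286, 4.50 and 0.280 CPM on untreated day 7 and 0.493, 2.61 and 1.36 CPM on treated day 7. In the P4 arm all 6 day 7 libraries lay below the 3 day 4 libraries, while the animals of the 17-OHPC/P4 arm went in different directions. PECAM1 in animals A, B and C stood at 2.79, 1.99 and 14.0 CPM on untreated day 4, 2.00, 3.43 and 9.32 CPM on untreated day 7 and 1.53, 2.63 and 6.60 CPM on treated day 7. In D, E and F it stood at 4.95, 5.70 and 9.25 CPM on untreated day 4, 6.38, 5.54 and 2.69 CPM on untreated day 7 and 2.53, 3.89 and 1.67 CPM on treated day 7. The 3 libraries of C held the most in each condition. The mean was 6.44 ± 4.48 CPM (SD, n = 6) on untreated day 4, 4.89 ± 2.74 CPM on untreated day 7 and 3.14 ± 1.89 CPM on treated day 7. In each of the 6 animals its treated day 7 level was below the untreated day 7 level.

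CLDN5 was the member whose lowest values lay mostly on day 4. In animals A, B and C it stood at 0.563, 0.124 and 0.844 CPM on untreated day 4, 1.92, 1.61 and 1.37 CPM on untreated day 7 and 11.1, 3.49 and 1.09 CPM on treated day 7. In D, E and F it stood at 0.250, 0.0439 and 0.514 CPM on untreated day 4, 7.59, 3.12 and 0 CPM on untreated day 7 and 14.1, 1.45 and 2.47 CPM on treated day 7. The 0 in animal F allows up to 0.0807 CPM, scaled by total counts alone. With that exception every day 7 library, treated or untreated, lay above all 6 day 4 libraries. Low values rest on few reads: all 18 CLDN5 counts were even numbers, as were 126 of the 180 counts of the members (70%) and 16 of the 16 counts of 20 or less. Whether each read pair was counted as 2 is not given in the sources used here, so the number of fragments behind a low value may be below its count. The bounds given for a 0 would then be too low.

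EMCN stood at 10.4, 13.4 and 11.9 CPM on untreated day 4, 0.501, 4.57 and 0.504 CPM on untreated day 7 and 0.774, 2.21 and 1.79 CPM on treated day 7 in animals D, E and F. The 3 day 4 libraries of the P4 arm lay close together and above all 6 day 7 libraries of the arm. In the 17-OHPC/P4 arm EMCN stood at 2.03, 0.249 and 6.95 CPM on untreated day 4, 2.06, 9.99 and 5.57 CPM on untreated day 7 and 2.69, 1.47 and 4.30 CPM on treated day 7, with no common direction. VWF, the secreted member, stood at 4.11, 13.0 and 24.5 CPM on untreated day 4, 7.34, 21.9 and 26.9 CPM on untreated day 7 and 4.92, 11.1 and 15.9 CPM on treated day 7 in A, B and C. In D, E and F it stood at 15.1, 15.2 and 19.7 CPM on untreated day 4, 9.21, 30.6 and 11.4 CPM on untreated day 7 and 8.87, 13.4 and 9.20 CPM on treated day 7. Its group means lay between 10.5 ± 2.50 CPM (SD, n = 3) on treated day 7 of the P4 arm and 18.7 ± 10.2 CPM on untreated day 7 of the 17-OHPC/P4 arm. Like PECAM1, it was lower on treated than on untreated day 7 in 6 of 6 animals. For VWF in D this rested on the scaling. Scaled by total counts alone, its treated library was slightly higher, at 8.37 against 8.26 CPM.

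**Figure D1:**
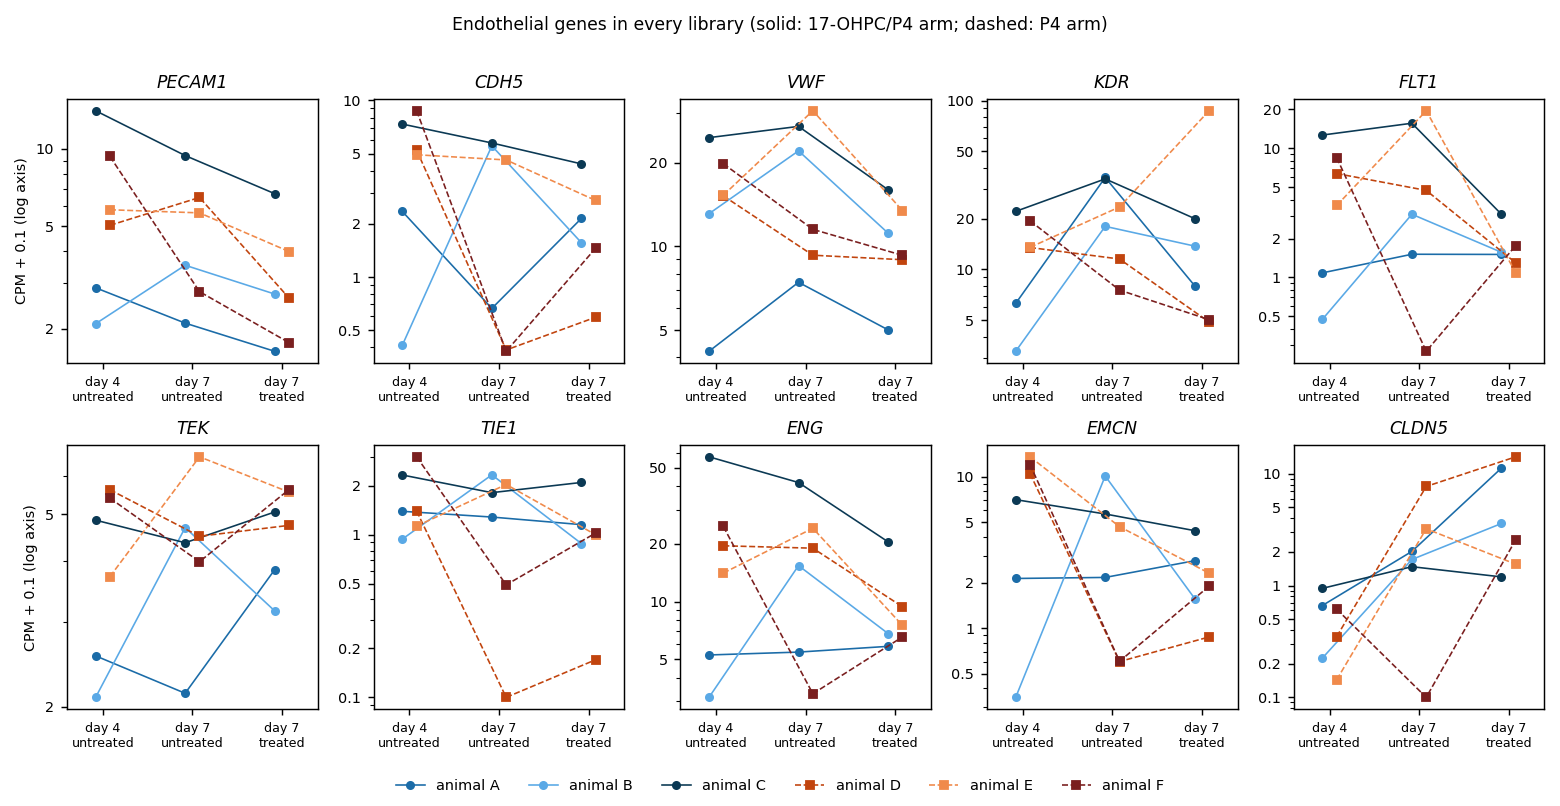
CPM plus 0.1 on a log axis for each of the 10 genes in all 18 libraries, with the 3 libraries of each animal joined by a line. EMCN leaves a tight day 4 cluster in the P4 arm, CLDN5 starts from its lowest values on day 4 in most animals, and KDR of animal E reaches 87.0 CPM on treated day 7.

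The first comparison set day 7 against day 4 of the untreated cycle. None of the 10 endothelial genes was called over both arms, while 10.6% of all genes tested were. CLDN5 had the largest value, 2.69 ± 1.01 (log2 fold change ± SE; adjusted p = 0.101), with 5 of 6 animals higher. EMCN had -0.87 ± 0.69 (adjusted p = 0.463) and CDH5 -0.82 ± 0.81 (adjusted p = 0.571), the latter lower in 5 of 6 animals. KDR had 0.67 ± 0.66 (adjusted p = 0.567). In these bulk samples, changes in the number of endothelial cells, in RNA per endothelial cell and in RNA from other cells cannot be told apart. The median over the members was -0.03, against -0.05 over all genes. DESeq2, which called 17.1% of genes, called CLDN5 at 2.75 (adjusted p = 0.0173). Without the untreated day 7 library of animal F, edgeR gave CLDN5 2.98 (adjusted p = 0.0226). A fit that paired libraries by cow called 16.7% of genes and left CLDN5 uncalled (adjusted p = 0.144). Its adjusted p ran from 0.0173 to 0.24 over 18 alternatives. Without animal C, KDR had 1.18, FLT1 1.05 in place of 0.47, EMCN -0.14 and ENG 0.50 in place of -0.20, with adjusted p from 0.354 to 0.934.

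In the P4 arm, 0 of 10 members were called, against 8.65% of all genes. EMCN had -2.68 ± 1.04 (adjusted p = 0.117) and was lower in 3 of 3 animals. CLDN5 had 3.71 ± 1.49 (adjusted p = 0.128; higher in 2 of 3), and CDH5 had -1.88 ± 1.17 (adjusted p = 0.339; lower in 3 of 3). CDH5 and EMCN were the 2 members whose day 7 values all lay below the day 4 values, as did those of 18% of all genes. With the animal as a block, which called 15.1% of genes, EMCN was called at -3.33 ± 1.01 (adjusted p = 0.0483). DESeq2, which called 18% of genes, called EMCN at -2.61 (adjusted p = 0.0334) and CLDN5 at 3.79 (adjusted p = 0.021). Without the untreated day 7 library of animal E, edgeR gave EMCN -4.55 (adjusted p = 0.0465) and CDH5, which stayed uncalled, -4.43 (adjusted p = 0.0731), and without that of animal F it gave CLDN5 4.30 (adjusted p = 0.0342). Over 11 alternatives the adjusted p of EMCN ran from 0.0334 to 0.348, that of CLDN5 from 0.021 to 0.389 and that of CDH5 from 0.0731 to 0.643. The pericyte and smooth muscle list moved beside EMCN and CDH5 in this arm: 9 of its 12 genes lay below 0 with a median of -0.96, and its sum was 532, 519.9 and 427 CPM on day 4 and 294, 273 and 139 CPM on day 7 in D, E and F. Its part in the result was not tested. Of blood cell lists, the platelet gene GP1BB rose (4.37 ± 1.28, adjusted p = 0.0478; 0.0589 in the paired fit), and the T cell gene CD3E fell (-1.21 ± 0.31, adjusted p = 0.0277). GP1BB had a mean of 0.102 CPM on day 4 and 2.17 ± 2.72 CPM (SD, n = 3) on untreated day 7. The lists as a whole overlapped between these days. The platelet sum ran from 15.4 to 21.5 CPM and then from 13.9 to 23.9 CPM, and the leukocyte sum from 198 to 315 CPM and then from 138 to 423 CPM.

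In the 17-OHPC/P4 arm, 0.0407% of all genes and 0 of 10 members were called. KDR, VWF, FLT1 and CLDN5 were higher on day 7 in 3 of 3 animals, with KDR at 1.47 ± 0.95 (adjusted p = 0.694) and CLDN5 at 1.66 ± 1.37 (adjusted p = 0.775). Only CLDN5 among the members had day 7 values that all lay above day 4, as did 7.1% of all genes. EMCN had 0.93 ± 0.98 (adjusted p = 0.816). Without animal C, KDR had 2.49, EMCN 2.4, FLT1 1.68 and ENG 1.33 in place of -0.06. CDH5 then had 1.22 in place of 0.24, CLDN5 2.34 in place of 1.66 and PECAM1 0.18 in place of -0.35, and the adjusted p of these 7 ran from 0.608 to 0.96. The difference between the arms in the untreated change was tested directly. EMCN had the largest difference of the 10, 3.61 ± 1.42 (adjusted p = 0.59), and 5.07 without animal C (adjusted p = 0.926). Its adjusted p ran from 0.259 to 0.926 over 18 alternatives. None of the members and 0% of all genes were called for it by edgeR, with 1514 genes at an unadjusted p below 0.05 and 80 called by DESeq2.

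**Figure D2:**
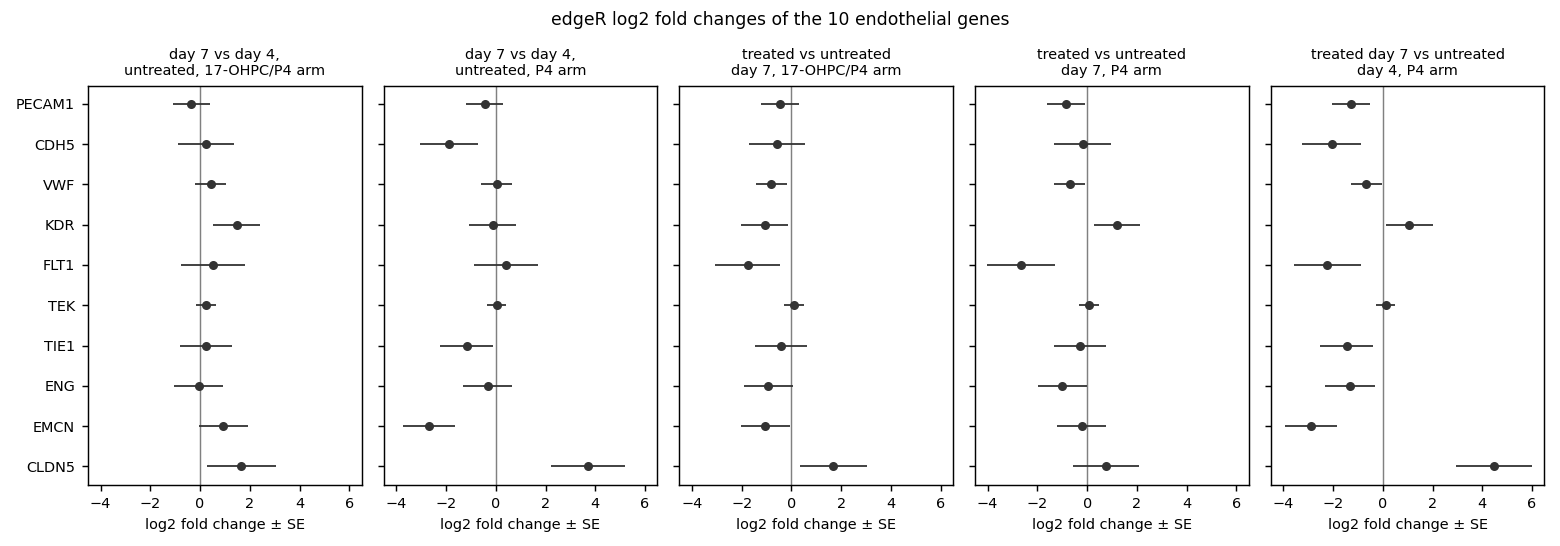
Log2 fold change with its standard error (edgeR) of the 10 genes in 5 comparisons. CLDN5 lies to the right and EMCN and CDH5 to the left of 0 in both P4 arm comparisons with day 4, and none of the points passed the adjusted threshold.

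The second comparison set treated against untreated day 7 at the same day of the cycle, the comparison that bears on the response to each formulation. None of the 10 members was called over both arms, in the 17-OHPC/P4 arm or in the P4 arm, and edgeR called 0% of all genes in each. At an unadjusted p below 0.05 there were 850, 371 and 596 genes, and DESeq2 called 2, 1 and 2. FLT1 had -2.21 ± 0.95 over both arms (adjusted p = 0.896) and was lower in 5 of 6 animals, in A by a log2 change of -0.0043. Without animal C, FLT1 had -1.63 (adjusted p = 0.921), and in the fit paired by cow -1.62 ± 0.87 (adjusted p = 0.707). VWF had -0.76 ± 0.44 (adjusted p = 0.896) and PECAM1 -0.65 ± 0.54 (adjusted p = 0.897), each lower in 6 of 6 animals, VWF in D by a log2 change of only -0.0535. Counts of animals by direction, here and elsewhere, have no share over all genes beside them, as it was not counted. ENG had -0.96 ± 0.70 (adjusted p = 0.896), CLDN5 1.21 ± 0.94 (adjusted p = 0.896) and TEK 0.10 ± 0.28 (adjusted p = 0.963). The median of the members was -0.51, against -0.01 over all genes, and 7 of 10 lay below 0.

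Within the arms, FLT1 had -2.65 ± 1.36 in the P4 arm (adjusted p = 1) and -1.76 ± 1.31 in the 17-OHPC/P4 arm (adjusted p = 0.99), where it was -0.61 without animal C. KDR had -1.07 ± 0.94 in the 17-OHPC/P4 arm, where it was lower in 3 of 3 animals, and 1.20 ± 0.94 in the P4 arm, where animal E was higher and D and F lower. Without the treated library of E the P4 arm value was -1.56 (adjusted p = 1). The difference between the arms' responses was -2.27 ± 1.33 for KDR (adjusted p = 1), and without that library of E it turned to 0.53 (adjusted p = 1). The adjusted p of this difference ran from 0.909 to 1 over 18 alternatives. For that difference edgeR called 0% of genes and 0 of 10 members and DESeq2 0 genes, with 247 genes at an unadjusted p below 0.05. The stromal list moved beside the members: 9 of its 10 genes lay below 0 over both arms, with a median of -0.60, and its sum ran from 122 to 4643 CPM on untreated day 7 and from 265 to 3134 CPM on treated day 7. The leukocyte list had 8 of 9 genes below 0, with a median of -0.34. The part of either in the endothelial values was not tested.

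The third comparison set treated day 7 against untreated day 4. In the P4 arm, 7 of the 10 members (PECAM1, CDH5, VWF, FLT1, TIE1, ENG and EMCN) were lower in all treated libraries than in any day 4 library, as were 18.2% of all genes, and CLDN5 was higher without overlap, as were 16.5% of genes. None passed the test, with 7.48% of all genes called. CLDN5 had 4.46 ± 1.53 (adjusted p = 0.0884), EMCN -2.90 ± 1.05 (adjusted p = 0.103), FLT1 -2.23 ± 1.34 (adjusted p = 0.331) and CDH5 -2.05 ± 1.18 (adjusted p = 0.309). TIE1 had -1.46 ± 1.07, ENG -1.33 ± 1.0, PECAM1 -1.30 ± 0.77 and VWF -0.67 ± 0.63, with adjusted p from 0.324 to 0.555. The median of the members was -1.31, against -0.02 over all genes. DESeq2, which called 14.8% of genes, called CLDN5 at 4.49 (adjusted p = 0.00575) and EMCN at -2.86 (adjusted p = 0.0209). A fit on only these 6 libraries, which called 10.7% of genes, called EMCN at -2.84 (adjusted p = 0.0167), FLT1 at -2.20 (adjusted p = 0.0302) and ENG at -1.29 (adjusted p = 0.0346). A fit paired by cow called 13.8% of genes and none of the members. Over 11 alternatives the adjusted p ran from 0.00575 to 0.263 for CLDN5, from 0.0167 to 0.253 for EMCN, from 0.0302 to 0.553 for FLT1 and from 0.0346 to 0.671 for ENG. Of the stromal list 8 of 10 genes lay below 0 (median -0.89) and of the leukocyte list 7 of 9 (median -0.74). Their part was not tested.

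In the 17-OHPC/P4 arm the members had no such shared direction against day 4, though the difference between the arms was not tested. CLDN5 was higher in 3 of 3 animals and without overlap, as were 10.9% of all genes, at 3.34 ± 1.45 (adjusted p = 0.218). It was thus higher on treated day 7 than on day 4 in 6 of 6 animals. None of the 10 was called, with 0.682% of all genes called. TEK was at 0.35 ± 0.39 (adjusted p = 0.605) and TIE1 at -0.19 ± 1.04 (adjusted p = 0.927). Without animal C, FLT1 turned from -1.25 to 1.07, ENG from -0.99 to 0.60, EMCN from -0.13 to 0.86 and CDH5 from -0.34 to 0.45, and CLDN5 went to 4.38. KDR then had 1.20 in place of 0.40 and PECAM1 -0.20 in place of -0.80, and the adjusted p of these 7 ran from 0.301 to 0.881. These comparisons share their treated libraries with the second comparison and their day 4 libraries with the first. The day 4 values of EMCN did not overlap between the arms.

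Between the arms, none of the members was called on treated day 7 (0.0102% of all genes called). The largest values were KDR at -1.22 ± 0.94 (adjusted p = 0.771) and TIE1 at 1.01 ± 1.06 (adjusted p = 0.855), positive where the 17-OHPC/P4 arm was higher. Without the treated library of animal E, KDR turned to 1.53 (adjusted p = 0.845), and its adjusted p ran from 0.488 to 0.883 over 11 alternatives. Without animal C, ENG turned from 0.51 to -0.31 and PECAM1 from 0.41 to -0.37. On untreated day 7, 0.00509% of genes and none of the members were called, with EMCN at 1.66 ± 1.0 (adjusted p = 0.575). FLT1 there went from -0.28 to -1.88 and ENG from 0.44 to -0.58 without animal C. On day 4, before either formulation was given, 2.76% of genes were called and again none of the members. EMCN was then lower in all animals of the 17-OHPC/P4 arm than in any of the P4 arm, as were 15.5% of genes, at -1.95 ± 1.0 (adjusted p = 0.266). Without animal C, 9 of the 10 members had day 4 values below 0, among them EMCN (-3.38), FLT1 (-3.14 in place of -0.38) and ENG (-2.24 in place of 0.17), with adjusted p from 0.139 to 0.767. CLDN5 was the exception at 0.36.

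Within single animals the members moved together in some cows and not in others. From untreated day 4 to day 7, all 10 were higher in animal B (median log2 change 2.39) and all 10 lower in animal F (-2.83). In animals A, C, D and E, 6, 4, 2 and 7 members were higher, with medians of 0.04, -0.24, -0.38 and 0.81. The median over all genes lay between -0.11 and 0.01 in the 6 animals. From untreated to treated day 7, animals B and E had 9 of 10 members lower (medians -0.99 and -1.05), C had 8 of 10 lower (-0.45), A and D had 5 of 10 lower, and F had 7 of 10 higher (1.06). B and F were thus at opposite ends in the untreated cycle.

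**Figure D3:**
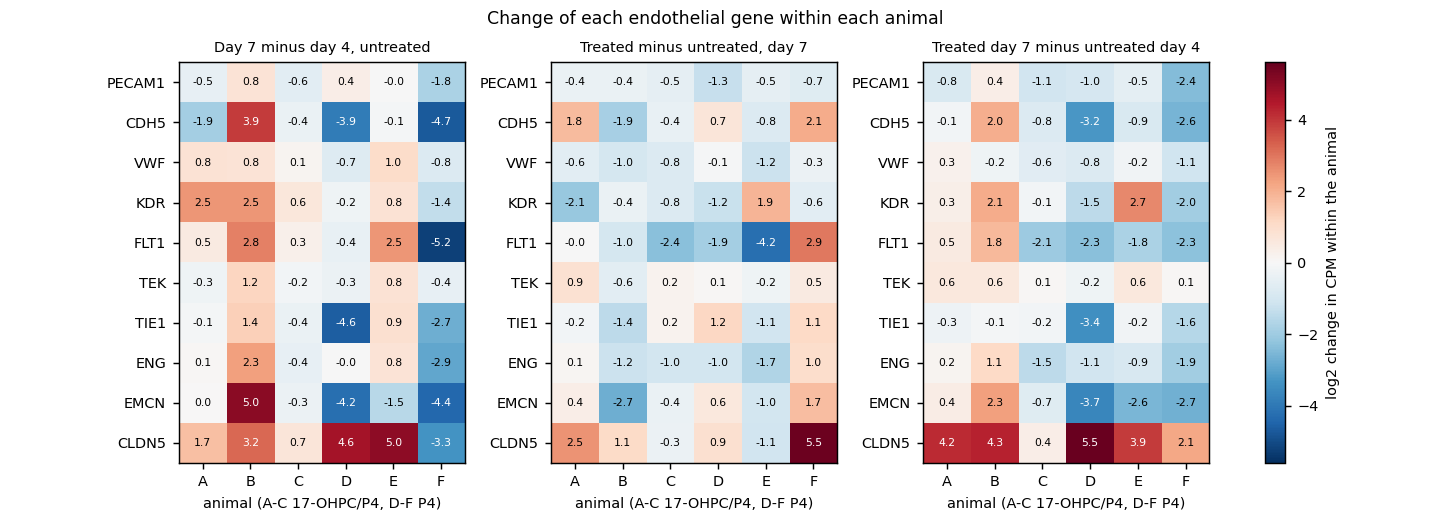
Log2 change in CPM of each of the 10 genes within each animal for the 3 comparisons, red for higher and blue for lower. Untreated day 7 against day 4 is red throughout for animal B and blue throughout for F, and CLDN5 is red in all 6 animals for treated day 7 against day 4.

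Stromal markers went the same way as the members in B and F, but not in every animal. In F they summed to 1122 CPM on untreated day 4, 122 CPM on untreated day 7 and 265 CPM on treated day 7, and in B to 276, 706 and 403 CPM. From untreated day 4 to day 7 they also fell in C (6538 to 4643 CPM), where 6 of 10 members were lower. In A they fell from 488.5 to 266 CPM, while 6 of 10 members were higher. In D they reached 3462 CPM on untreated day 7, against at most 1820 CPM on day 4 of the P4 arm, while 8 of 10 were lower. The leukocyte list of F summed to 315, 138 and 110.3 CPM, and that of B to 152, 153 and 195 CPM. The part of these lists in the endothelial values was not tested.

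The untreated day 7 library of animal D showed that the members did not always move together. CDH5 stood at 0.286 CPM, EMCN at 0.501 CPM and TIE1 at 0 there, while ENG stood at 18.9 CPM, PECAM1 at 6.38 CPM and FLT1 at 4.62 CPM. The stromal list of that library summed to 3462 CPM, the highest outside animal C, and the leukocyte list to 320.0 CPM. RGS5, a pericyte gene, went from 16.8 CPM on day 4 to 1.65 CPM on untreated day 7 and 1.62 CPM on treated day 7 in this animal. The collagen gene COL1A1 went from 371 CPM to 894 and 465 CPM. On untreated day 7, CDH5, EMCN and RGS5 were thus low in D where ENG, PECAM1 and collagen were not. By treated day 7, ENG and PECAM1 of D also lay below day 4, at 9.29 against 19.5 CPM and 2.53 against 4.95 CPM. The whole pericyte and smooth muscle list of D fell less than RGS5. It summed to 532 CPM on untreated day 4, 294 CPM on untreated day 7 and 395 CPM on treated day 7.

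**Figure D4:**
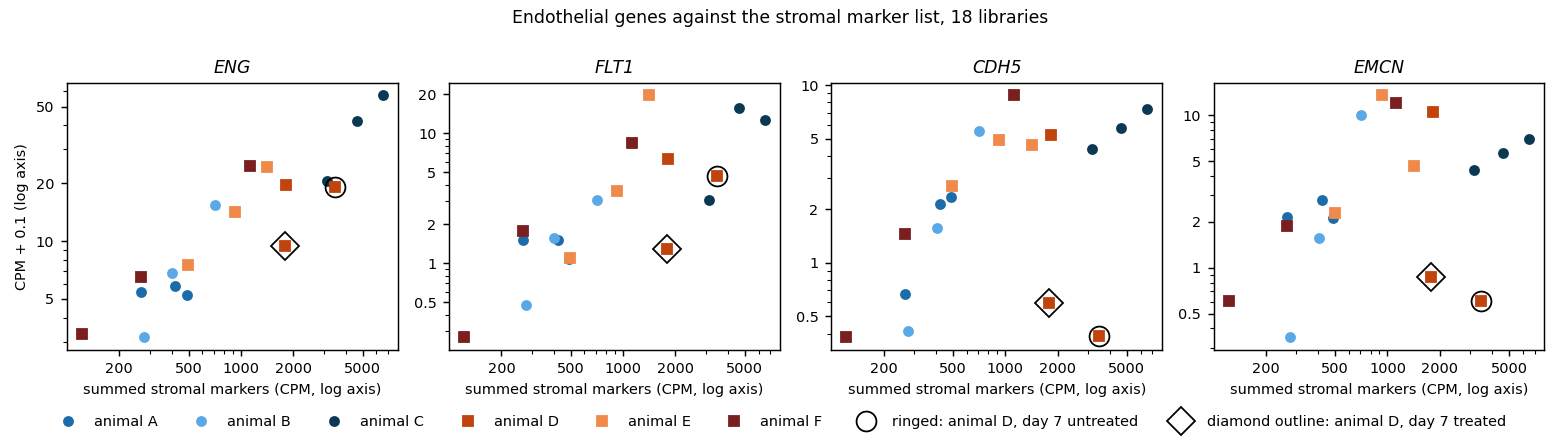
CPM plus 0.1 of ENG, FLT1, CDH5 and EMCN against the summed CPM of 10 stromal markers in 18 libraries, both on log axes. ENG is higher where the stromal sum is higher, and the marked day 7 libraries of animal D lie far below other libraries with much stromal RNA for CDH5 and EMCN.

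Across the 18 libraries the members differed in how their log2 CPM varied together, given here as Pearson correlations over repeated samples of 6 animals. CDH5 and EMCN had r = 0.936, and ENG had r = 0.933 with FLT1 and 0.901 with PECAM1. The 36 pairs without CLDN5 ran from 0.0722 to 0.936 with a median of 0.538. The 9 pairs with CLDN5 ran from -0.323 to 0.226 with a median of -0.0872. CDH5 and EMCN had r = 0.823 and 0.784 with the sum of the other blood vessel endothelial markers, and 0.487 and 0.422 with the stromal sum. ENG, PECAM1 and FLT1 had r = 0.91, 0.824 and 0.797 with the stromal sum and 0.767, 0.812 and 0.752 with the leukocyte sum. VWF had 0.774 with the leukocyte sum, and CLDN5 had -0.781 with the epithelial sum. The sums share libraries and depth with the members, and animal C holds the largest stromal sum.

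**Figure D5:**
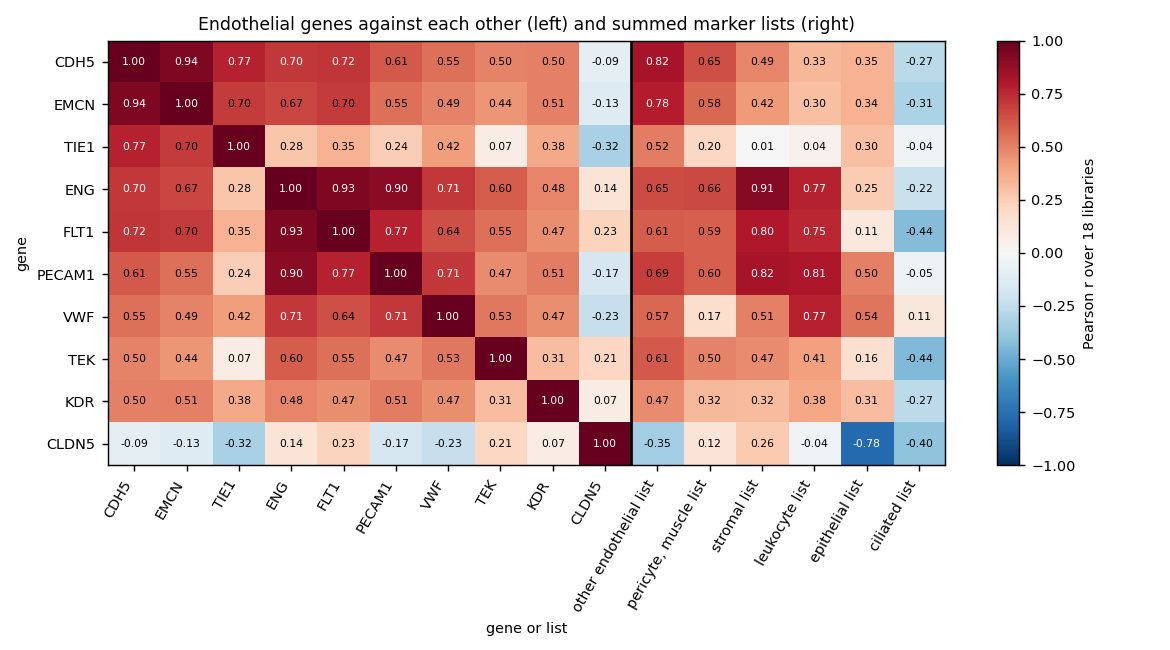
Pearson r of log2 CPM over 18 libraries between the 10 genes and of each gene with 6 summed marker lists. High values link CDH5 with EMCN and with the other endothelial markers, and ENG, FLT1 and PECAM1 with the stromal and leukocyte lists, while CLDN5 is weakly related to all other members and negatively to the epithelial list.

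The genes most like the mean of the members (the mean of their standardized log2 CPM, among genes with a mean of at least 1 CPM) were PLVAP, which forms the diaphragms of fenestrated vessels (r = 0.948, Spearman rho = 0.932), ABCB1, an efflux pump (0.947, 0.928), and ROBO4, a guidance receptor of endothelium (0.938, 0.895). BCL6B (0.912), HOXD3 (0.901), PEAR1 (0.896), SELP (0.895), JAM2 (0.885), SOX18 (0.878) and INHBA (0.866) followed. Of these 10, PLVAP, ROBO4, SELP, JAM2, BCL6B and SOX18 stood on the endothelial lists. Without the day 4 libraries of animals B and C, which lay farthest from the median, the 10 values of r ran from 0.821 to 0.936.

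The neighbours of single members were looked up after the values were seen. CDH5 was followed by ADGRL4 (0.944) and ROBO4 (0.936), and EMCN by CDH5, ROBO4 (0.92) and ADGRL4 (0.905). ENG was followed by COL16A1, a collagen gene (0.947), and WNT2 (0.943). PECAM1 was followed by DOCK4 (0.931) and SEMA7A (0.929), with C1QA, a complement gene of macrophages, also among them (0.926). CLDN5 was followed by HNMT (0.89) and HOMER3 (0.879) and by the mitochondrial genes ND1 (0.858) and COX1 (0.851). KDR was followed by CYP24A1 (0.844) and KCNK7 (0.844), which had 0.784 and 0.793 without the treated library of animal E.

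Other vascular genes were taken from 7 lists. None of 8 VEGF ligands and co-receptors was called by edgeR in any of the 13 comparisons. VEGFA, the main ligand of KDR, had a log2 change of -0.17 ± 0.28 from untreated day 4 to day 7 (adjusted p = 0.753) and -0.11 ± 0.28 from untreated to treated day 7 (adjusted p = 0.958). VEGFB, a ligand of FLT1, had 0.65 ± 0.27 from untreated day 4 to day 7 (adjusted p = 0.131; higher in 5 of 6 animals). On treated day 7 against day 4 of the 17-OHPC/P4 arm it was called when libraries were paired by cow (1.37 ± 0.34, adjusted p = 0.0445). NRP1, a co-receptor of KDR, had -1.22 ± 0.64 on treated against untreated day 7 (adjusted p = 0.896), lower in 6 of 6 animals. None of the 7 angiopoietin genes tested was called either. ANGPT2, a ligand of TEK, had -0.96 ± 0.87 on treated against untreated day 7 (adjusted p = 0.898; lower in 5 of 6 animals).

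Called genes were found in the artery, vein and Notch list. From untreated day 4 to day 7 over both arms, 2 of 15 rose and 2 fell (3 and 3 with the animal as a block, which added JAG1 and GJA4), with a list median of -0.35. Over all genes 10.6% were called, and 16.7% with the block. The Notch ligands JAG2 (1.81 ± 0.36, adjusted p = 0.00739) and DLL1 (1.18 ± 0.26, adjusted p = 0.0121) rose, in 6 of 6 animals each. EPHB4, a receptor known from vein endothelium, fell by 1.27 ± 0.23 (log2 scale; adjusted p = 0.00496; 6 of 6 animals), and its ligand EFNB2, known from arteries, fell by 1.59 ± 0.37 (adjusted p = 0.0151; 5 of 6). Both genes are also expressed outside vessels. The cells behind the values of JAG2, DLL1, EPHB4, EFNB2 and the list genes named below were not identified. JAG2 had a mean of 179 ± 110 CPM (SD, n = 6) on untreated day 7.

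EPHB4 in animals D, E and F stood at 104, 138 and 103 CPM on untreated day 4, 19.9, 23.8 and 30.7 CPM on untreated day 7 and 21.2, 34.2 and 33.2 CPM on treated day 7. In animals A, B and C it stood at 36.1, 39.0 and 50.2 CPM on untreated day 4, 20.9, 31.9 and 47.3 CPM on untreated day 7 and 14.4, 26.7 and 32.4 CPM on treated day 7. All day 4 values of the P4 arm lay above every other EPHB4 value. The change from untreated day 4 to day 7 was -2.21 ± 0.34 in the P4 arm (adjusted p = 0.00383) and -0.32 ± 0.32 in the 17-OHPC/P4 arm (adjusted p = 0.806). The difference between these changes had adjusted p = 0.397. On day 4 EPHB4 was called lower in the 17-OHPC/P4 arm (-1.46 ± 0.33, adjusted p = 0.0361). In the untreated cycle 2 of the 15 rose and 2 fell in the P4 arm, where 8.65% of all genes were called. In the 17-OHPC/P4 arm edgeR called 0 of the 15 and 0.0407% of all genes. There 2 of the 15 had an unadjusted p below 0.05, as had 9.62% of all genes. JAG2 (2.27 ± 0.51, adjusted p = 0.0181) and DLL1 (1.29 ± 0.37, adjusted p = 0.0433) rose in the P4 arm, and EFNB2 fell (-3.08 ± 0.55, adjusted p = 0.00697). On treated day 7 against day 4 of the P4 arm, EPHB4 (-1.96 ± 0.33, adjusted p = 0.00806), EFNB2 (-2.87 ± 0.54, adjusted p = 0.0126) and JAG1 (-2.52 ± 0.72, adjusted p = 0.0471) fell, while JAG2 (2.50 ± 0.52, adjusted p = 0.0158) and DLL1 (1.55 ± 0.37, adjusted p = 0.0254) rose. Of all genes, 7.48% were called in that comparison. In the 17-OHPC/P4 arm the same comparison gave 0 of 15 called by edgeR, against 0.682% of all genes. It gave 5 at an unadjusted p below 0.05, against 20.5% of all genes. With the animal as a block 2 were called higher and 1 lower, against 5.24% of all genes called. There JAG2 had 2.07 ± 0.51 (adjusted p = 0.0692; 0.0194 in the paired fit), EPHB4 -0.77 ± 0.32 (adjusted p = 0.208; 0.0335 in the paired fit) and UNC5B, a guidance receptor, 2.22 ± 0.69 (adjusted p = 0.121; 0.0365 in the paired fit). JAG2, EPHB4 and EFNB2 had the same sign in both arms.

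Of 12 genes of the endoglin and BMP9 pathway tested, 1 rose from untreated day 4 to day 7 over both arms (1 rose and 3 fell with the animal as a block, with BMPR2, SMAD6, SMAD7 and ID3 called there). It was BMP6, a ligand of the BMP family, at 2.54 ± 0.70 (adjusted p = 0.032; 6 of 6 animals), which lost its call with the block (2.38 ± 0.80, adjusted p = 0.0649). The counts called in this list and in the transcription factor and lymphatic lists are to be read against 10.6% of all genes called by edgeR and 16.7% with the block, and those of the P4 arm against 8.65% and 15.1%. Within the P4 arm ID3 (-2.32 ± 0.62, adjusted p = 0.0338) and SMAD6 (-1.24 ± 0.35, adjusted p = 0.041), both known targets of BMP signals, fell, and 4 of the 12 fell with the animal as a block. Of 18 endothelial transcription factors, KLF4 rose over both arms (1.76 ± 0.42, adjusted p = 0.0181; 6 of 6), and the block added GATA2 and ETS2. KLF4 also rose within the P4 arm (2.41 ± 0.61, adjusted p = 0.0275). Of 8 lymphatic endothelial markers, RELN rose (3.13 ± 0.66, adjusted p = 0.0102; 6 of 6), and the block added LYVE1.

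Of 31 other blood vessel endothelial markers, ARHGEF15 fell from untreated day 4 to day 7 over both arms (-1.29 ± 0.32, adjusted p = 0.0215; 5 of 6 animals). That 1 of 31 stands against 10.6% of all genes called. The block added NOS3, 24 of 31 lay below 0, and the median was -0.40. Within the P4 arm ARHGEF15 (-2.19 ± 0.47, adjusted p = 0.0147) and MMRN2, a protein of the vessel wall matrix (-2.44 ± 0.67, adjusted p = 0.0384), fell. There 25 of 31 lay below 0 with a median of -0.98, and 5 fell with the animal as a block, which added AQP1, ACKR1 and SHANK3. Over all genes, 8.65% were called in this arm, and 15.1% with the block. In the 17-OHPC/P4 arm 13 of 31 lay below 0, with a median of 0.18. On treated against untreated day 7, none of the 7 lists held a gene called by edgeR, over both arms or in either arm. There 24 of the 31 markers lay below 0 over both arms with a median of -0.39, as did 15 of 18 transcription factors (median -0.58), against a median of -0.01 over all genes. Other lists lay the other way: 8 of 12 endoglin and BMP9 genes (median 0.12), 8 of 15 artery, vein and Notch genes (median 0.14) and 9 of 12 pericyte and smooth muscle genes (median 0.21) lay above 0. The median of the 31 markers was -0.50 for the 17-OHPC/P4 arm, and for the P4 arm -0.10.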

How the data were processed

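Poly(A) RNA from 18 brushed endometrial samples was sequenced as paired reads, per the labels' protocols. Of software, cutadapt, FastQC, STAR, featureCounts and DESeq2 are listed in the submitters' processing notes, with no version. Genome build, annotation, strand setting and the handling of read pairs: not given in the sources used here. Raw counts were deposited by the authors for 38001 Ensembl gene identifiers, of which 17715 had no symbol, and the table held 0 columns of other samples. Gene lengths were not used, so levels are not compared between genes.

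Counts were fitted in R 4.3.3 with edgeR 4.0.16 (filterByExpr, TMM factors from 0.881 to 1.16, robust quasi-likelihood F test). All 18 libraries entered with 1 mean per group, and Benjamini-Hochberg adjustment covered the 19638 genes tested. Log2 CPM used a prior count of 2. The letter in a library's name is the cow, so libraries are paired by animal. Deviations of same-animal libraries from their group means correlated at -0.0712 to 0.718. The biological coefficient of variation was 51.4%, or 39.4% with the animal as a block. The alternatives were DESeq2 1.42.0, RLE factors, no filter, only the groups compared, the animal block, each library left out and, chosen after seeing the data, all of animal C left out. Only the edgeR fit without the animal block was tested on simulated data, for untreated day 7 against day 4 over both arms. The planted changes were large, all genes had the same dispersion and no animal effect was simulated. The power for changes of the size seen in the members was thus not measured. No row carried the list symbols CAV1, ICAM2, PF4, PPBP, HBA and HBA1. SELP stands on the platelet and the endothelial list, and FLT4 on the VEGF and the lymphatic list.

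The members and lists were chosen with earlier results of these data known. The 10 members are named in every comparison as their values warrant. From each list the rule names up to 4 called genes with the largest change or, where none is called, up to 2 with the smallest p, and allows VEGFA, NRP1, ANGPT2, RGS5 and COL1A1 throughout. Genes named for a call with the animal as a block, and neighbours of single members, were chosen after their values were seen.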

Additional observations from a re-analysis of the deposited data

Results flagged for a closer look

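Each of the 10 genes was examined over 6 animals on untreated day 4, untreated day 7 and treated day 7, which makes 30 groups. In 3 of them 1 library lay far from the others by Dixon's criterion. That criterion picks out about 1 in 20 groups where values are independent and normally distributed. The CPM were not log-transformed, and the groups share libraries and members that vary together, so this rate need not hold here. All 3 were on treated day 7. KDR of animal E stood at 87.0 CPM, with the next animal at 19.9 CPM and a gap of 0.816 of the whole range. FLT1 of animal C stood at 2.98 CPM, with the next at 1.67 CPM and a gap of 0.66 of the range. ENG of animal C stood at 20.4 CPM, with the next at 9.29 CPM and a gap of 0.758 of the range. The stromal sum of that library of C was 3134 CPM, the highest of the treated libraries, and its part in FLT1 and ENG was not tested.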

How the results depend on the processing

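None of the 10 members was called by edgeR in any of the 13 comparisons, and 8 of 174 counts under other settings were above 0. From untreated day 4 to day 7 over both arms, DESeq2 called 1 member (CLDN5), and leaving out 1 library gave 0 to 1. In the P4 arm DESeq2 called 2 (EMCN and CLDN5), the replicate block that pairs libraries by cow called 1 (EMCN), and leaving out 1 library gave 0 to 1. On treated day 7 against day 4 of the P4 arm, DESeq2 called 2 (EMCN and CLDN5), and a fit on only those groups called 3 (FLT1, ENG and EMCN). The replicate block changed no other call of a member, and RLE factors, no filter and leaving out animal C added 0. Of 1740 values of the members' changes under other settings, 171 had the other sign, 0 of them called under either setting, and 102 moved by over 1 SE; the cause was not tested. Over all genes, edgeR, edgeR with the block and DESeq2 called 2073, 3272 and 3478 for untreated day 7 against day 4 over both arms; 8, 108 and 375 for the 17-OHPC/P4 arm; 1698, 2975 and 3356 for the P4 arm. For treated day 7 against day 4 they called 134, 1029 and 1448 for the 17-OHPC/P4 arm, and 1468, 2702 and 2915 for the P4 arm. Between arms, edgeR and DESeq2 called 542 and 2220 on day 4, 1 and 336 on untreated day 7 and 2 and 179 on treated day 7. With 3 animals a group and SDs between animals of 0.45 to 1.96 on the log2 scale, an uncalled change does not show that levels were equal. Replicates were separate cows.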

Other observations

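GJA4, a gap junction gene known from arteries, was singled out after its values were seen. It stood at 0.900, 0.526 and 0.560 CPM on untreated day 4, 20.2, 14.7 and 1.99 CPM on untreated day 7 and 16.9, 9.61 and 15.9 CPM on treated day 7 in animals D, E and F, and at 5.07, 0.249 and 0.546 CPM on untreated day 4, 1.07, 0.597 and 4.86 CPM on untreated day 7 and 38.2, 2.33 and 7.72 CPM on treated day 7 in animals A, B and C. Like the junction gene CLDN5, it was higher on treated day 7 than on day 4 in 6 of 6 animals. From untreated day 4 to day 7 GJA4 had 2.18 ± 0.84 over both arms (adjusted p = 0.108) and 4.21 ± 1.29 in the P4 arm (adjusted p = 0.056). In the paired fit both were called (adjusted p = 0.0292 and 0.0209).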
